A study of Mus musculus with 6 samples.

Results

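The transcripts of 9 heat shock chaperone genes were followed in whole lung from mice in which a dominant-negative bone morphogenetic protein type 2 receptor (dnBMPR2) was switched on in smooth muscle. The genes were Hspa1a, Hspa1b, Hspa8, Hsph1, Dnajb1, Hsp90aa1, Hspb1, Bag3 and Serpinh1. They were chosen by their log2 intensities across the control, 1 week and 8 week pools, and every probe set whose only gene symbol was one of these names was taken, 22 of 45037 probe sets on the array. They are 9 of the 13215 genes that could be measured. Of the 22 probe sets, 20 were bright enough to be kept among the 27022 probe sets tested, and each of the 9 genes had at least 1. The 2 left out were dim probe sets of Hsp90aa1.

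Each of the 6 arrays carried RNA from the pooled lungs of 3 mice, and each of 3 groups had 1 female and 1 male pool. The 2 control pools were labelled female FVB/N and male SM22-rtTA only, and per the series description the controls carried the transactivator alone. The 2 pools of the 1 week group and the 2 pools of the 8 week group came from inducible SM22-dnBMPR2 transgenic females and males activated for 1 and 8 weeks. SM22 is the promoter of the smooth muscle gene Tagln, so the transactivator was driven in smooth muscle while the RNA came from all cells of the lung. Per the same description, the transgenic mice had raised pressure in the right ventricle. The label of the female control named no transgene, no activation time was given for either control, and only the 4 transgenic samples had a stated way of freezing and of extracting RNA on columns. Differences in genotype background, age, inducer exposure and tissue handling therefore cannot be told apart from the transgene. No group had 2 pools of the same sex, so a spread within a group is always a difference between a female and a male pool. In the controls the pools also differed in genotype label, so sex and genotype label cannot be told apart there.

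Heat shock chaperones bind unfolded protein, keep it from aggregating and help it fold. Hsp70 proteins such as those of Hspa1a, Hspa1b and Hspa8 work in a cycle of ATP hydrolysis that J-domain proteins such as Dnajb1 start and that exchange factors such as Hsph1 and Bag3 reset, and clients may pass on to Hsp90. Several of these genes, Hspa1a and Hspa1b above all, are switched on within minutes to hours of heat or other protein damage by heat shock factor 1, which binds inverted repeats of a short motif in their promoters. Dissection and handling of tissue can also induce them.

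The promoters of the inducible genes are shown because they carry this motif and because those of Hspa1a and Hspa1b are near copies of each other. The sequences are from RefSeq, build GRCm38.p6, and run from 250 bases before to 50 bases after the annotated start, 5′ to 3′ on the gene's own strand. Capitals mark every inverted pair of heat shock units, GAANNTTC or TTCNNGAA. Each pattern reads the same on both strands, and neighbouring pairs may share a unit. Windows were found for 7 of the 9 genes. The Hspa1a window lies at chr17:34972107-34972406 on the minus strand, the Hspa1b window at chr17:34959189-34959488 on the minus strand, the Hsph1 window at chr5:149636287-149636586 on the minus strand and the Hspb1 window at chr5:135887669-135887968 on the plus strand.
Hspa1a: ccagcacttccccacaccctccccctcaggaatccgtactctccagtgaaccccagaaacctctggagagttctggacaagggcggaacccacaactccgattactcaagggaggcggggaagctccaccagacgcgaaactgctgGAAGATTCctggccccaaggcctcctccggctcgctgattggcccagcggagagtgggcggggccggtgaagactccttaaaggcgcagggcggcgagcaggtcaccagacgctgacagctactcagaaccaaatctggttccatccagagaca
Hspa1b: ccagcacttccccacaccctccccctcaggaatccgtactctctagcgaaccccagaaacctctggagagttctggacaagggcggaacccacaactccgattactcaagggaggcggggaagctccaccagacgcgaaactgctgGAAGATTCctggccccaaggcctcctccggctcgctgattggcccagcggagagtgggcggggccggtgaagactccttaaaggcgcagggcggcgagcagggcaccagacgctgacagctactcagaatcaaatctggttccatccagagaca
Hsph1: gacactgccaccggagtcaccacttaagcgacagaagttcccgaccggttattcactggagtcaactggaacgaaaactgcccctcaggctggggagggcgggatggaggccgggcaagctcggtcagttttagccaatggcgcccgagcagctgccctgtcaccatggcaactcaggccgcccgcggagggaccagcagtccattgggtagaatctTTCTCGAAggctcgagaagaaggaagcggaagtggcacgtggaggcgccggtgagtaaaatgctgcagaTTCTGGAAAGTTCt
Hspb1: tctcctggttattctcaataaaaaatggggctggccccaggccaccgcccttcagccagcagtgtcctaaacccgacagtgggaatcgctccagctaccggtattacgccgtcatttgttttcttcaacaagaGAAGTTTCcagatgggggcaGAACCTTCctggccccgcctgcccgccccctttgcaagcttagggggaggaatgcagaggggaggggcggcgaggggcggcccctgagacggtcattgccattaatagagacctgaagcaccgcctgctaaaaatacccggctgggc

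Hspa1a and Hspa1b held the same pair, GAAGATTC, at position -104 from the start. Their windows differed at 4 of 300 bases (98.67% identical), and counted from 1 at the 5′ end of the window, with the Hspa1a base first, these were C44T, T47C, T249G and C276T. Hsph1 held TTCTCGAA at position -33 and, downstream of the start, TTCTGGAA and GAAAGTTC overlapping at positions 36 and 41, which made 3 units in a row. Hspb1 held GAAGTTTC at -117 and GAACCTTC at -97, and Bag3 held GAAGTTTC at 42. The windows of Dnajb1 and Serpinh1 held no such pair. In all, 5 of the 7 genes had a pair in their first window, against 15.056% of 32851 promoter windows of the same length, and 1 had 3 units in a row, against 0.6027%. A match of these letters was a description of the window and not a measured binding site.

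Values below are log2 of the quantile-normalized intensity of a probe set, on which a difference of 1 is a doubling. They compare arrays within a probe set, not genes with each other. The level of a gene is that of its brightest probe set unless stated. Fitted changes are from a limma model with group and sex over all 6 arrays. Because the members were selected on these levels, every difference between groups is a description of the members. Counts of members called in these comparisons are printed beside their background, and no test is read from them.

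Array-wide facts bore on the reading of the members. Median deposited intensity lay between 50.49 and 63.41 on the 6 arrays. Xist matched the labelled sex on all 6. Lung epithelial markers (6 of 6 measured) summed to between 42472 and 46477, so the tissue carried its defining transcripts on every array. Quantile normalization gives the brightest probe sets nearly the same value on each array, such as Scgb1a1 at 13.36 on all 6. The likeness of these sums between arrays is thus not read. Bmpr2, whose product the transgene blocks, had log2 levels of 11.99 and 12.15 in control females and males, 11.85 and 12.14 after 1 week, and 11.79 and 11.84 after 8 weeks. Whether its probe sets read the transgene is not known, so they do not check the labels. Tagln had 11.34 and 11.05 in the controls, 11.48 and 11.31 at 1 week and 11.06 and 11.02 at 8 weeks. For Hspa1a and Hspa1b, the male control pool was the highest of the 6 arrays and the female control pool the lowest, and group changes and sex differences of these genes are also given without a control pool.

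**Figure D1:**
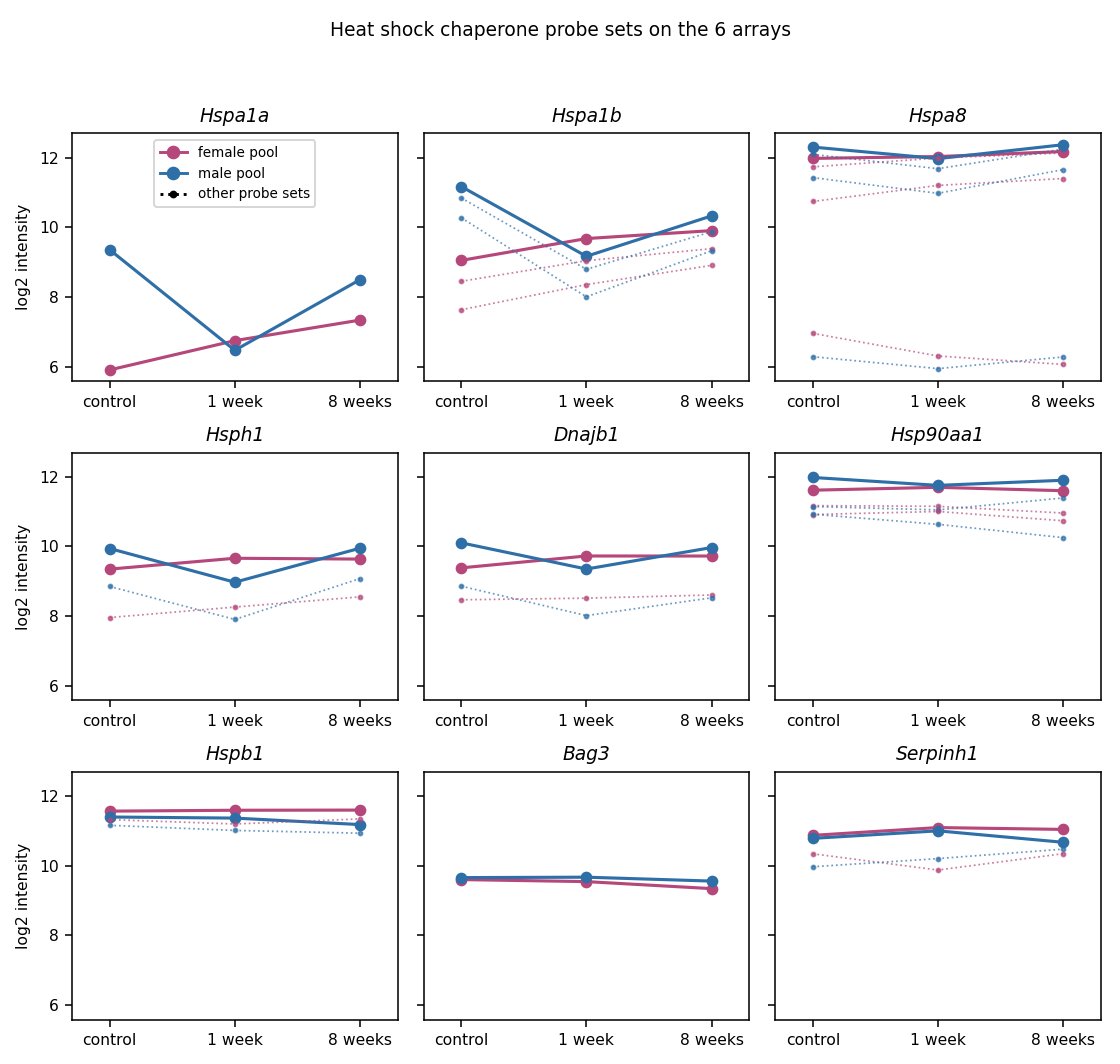
Log2 intensity of the member probe sets (y axis) in the control, 1 week and 8 week pools (x axis), with female and male pools as separate lines, the brightest probe set solid and the other kept probe sets dotted. Hspa1a spans 3.45 log2 units and is highest in the male control pool at 9.35, while Bag3 spans 0.33.

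The inducible Hsp70 genes had the widest spread of the members, and most of it lay between the control pools. Hspa1a encodes the stress-induced cytosolic Hsp70. Its log2 level was 5.90 in the female and 9.35 in the male control pool, 6.74 in the female and 6.47 in the male 1 week pool, and 7.33 in the female and 8.49 in the male 8 week pool. The deposited intensities were 66.19 and 673.87 in the female and male controls, 112.24 and 87.45 at 1 week, and 151.45 and 341.28 at 8 weeks. The female control was thus the lowest array and the male control the highest, so both transgenic groups lay inside the range of the controls.

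Hspa1b encodes a nearly identical Hsp70, and transcripts of both genes may bind the same probes. Its 3 probe sets cite the same source sequence and are not independent. The brightest had 9.05 and 11.17 in the female and male controls, 9.67 and 9.16 at 1 week, and 9.90 and 10.32 at 8 weeks. The second had 8.45 and 10.84 in the controls, 9.04 and 8.79 at 1 week, and 9.38 and 9.87 at 8 weeks. The third, the dimmest, had 7.63 and 10.27, 8.35 and 8.00, and 8.90 and 9.32 in the same order of groups. All 3 gave the order seen for Hspa1a at both ends, with the female control lowest and the male control highest.

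The difference between the control pools, female minus male, was -3.45 for Hspa1a and -2.12 for Hspa1b, which is 10.9-fold and 4.35-fold higher in the male pool. Over all 13215 genes measured, the median absolute difference between these pools was 0.26. Only 9 genes differed by more than Hspa1a and 57 by more than Hspa1b. Of those 9, Xist, Eif2s3y, Uty and Kdm5d are sex-linked, and the chemokine genes Cxcl2 and Cxcl1 were higher in the female control by 6.60 and 4.64. These names were picked after their values were seen. Female minus male, Hspa1a differed by 0.28 at 1 week and -1.16 at 8 weeks, and Hspa1b by 0.51 at 1 week and -0.42 at 8 weeks. The female minus male difference was thus larger in size in the controls than in either transgenic group, and at 1 week the sign was the opposite. The control pools differed in genotype label as well as in sex, so their difference cannot be ascribed to sex.

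With the controls this far apart, the change at each duration pointed in opposite directions in females and males. In females, Hspa1a was higher than control by 0.84 at 1 week and 1.43 at 8 weeks. In males it was lower by values of -2.89 at 1 week and -0.86 at 8 weeks. Fitted over both sexes, the change was -1.02 ± 0.87 (SE) at 1 week and 0.29 ± 0.87 at 8 weeks. These fitted values hide the opposed pools: without the male control they were 0.48 at 1 week and 1.79 at 8 weeks, and without the female control -2.53 and -1.22.

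Hspa1b followed the same course. In females it was above control by 0.63 at 1 week and 0.85 at 8 weeks, and in males its differences were -2.00 and -0.84. The fitted changes were -0.69 ± 0.62 at 1 week and 0.01 ± 0.62 at 8 weeks. Without the male control they were 0.39 and 1.09, and without the female control -1.77 and -1.08. As with Hspa1a, which control pool was used set the sign of both changes.

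**Figure D2:**
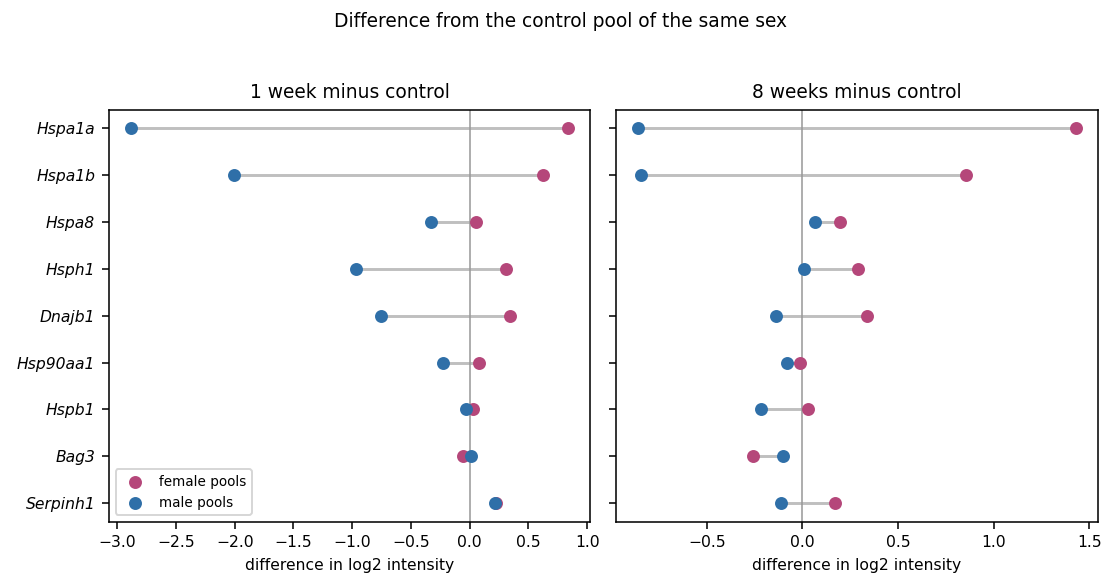
Difference in log2 intensity from the control pool of the same sex (x axis) for the 9 genes (y axis) at 1 week and at 8 weeks, with 1 point for the female and 1 for the male pools joined by a line. Hspa1a and Hspa1b lie right of 0 in females and left of 0 in males in both panels, while Serpinh1 and Bag3 have short lines near 0.

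Between the transgenic groups, a comparison that does not use the control pools, the Hsp70 genes were higher at 8 weeks than at 1 week in both sexes. Hspa1a was higher by 0.59 in females and 2.03 in males, with a fitted difference of 1.31 ± 0.87. Hspa1b was higher by 0.23 in females and 1.16 in males, with a fitted difference of 0.69 ± 0.62. For both genes, the 2 pools at 8 weeks lay above the 2 pools at 1 week. The mean level of Hspa1a was 7.63 ± 2.44 in the controls, 6.61 ± 0.20 at 1 week and 7.91 ± 0.82 at 8 weeks (SD, n = 2 each). In a bulk tissue sample, more cells of one kind and more RNA per cell cannot be told apart.

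Summed markers of other cell types also differed between these groups. Macrophage markers (8 of 8 measured, none at the floor of the scale in any pool) summed to 7468 and 6522 in the female and male 8 week pools, against 3418 and 2163 at 1 week. Neutrophil markers (8 of 10) summed to 9924 and 11081 at 8 weeks, against 3640 and 4625 at 1 week. Cardiac muscle markers (12 of 12, with Nppa at the floor in the 3 female pools) summed to 2774 and 7014 at 8 weeks, against 14819.8 and 18503 at 1 week. The part of these cells in the higher Hsp70 values was not tested. In the controls, which differ most in Hspa1a, cardiac markers summed to 13142 and 12729 in the female and male pools, neutrophil markers to 4082 and 3713, and macrophage markers to 1475 and 2402.

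Hspa8 encodes the constitutive Hsp70 of the cytosol, and its range was narrow in the brightest probe set. Its brightest probe set had 11.97 and 12.30 in the female and male controls, 12.03 and 11.97 at 1 week, and 12.17 and 12.37 at 8 weeks. The difference from control was 0.05 in females and -0.33 in males at 1 week, and 0.20 and 0.07 at 8 weeks. It was higher at 8 weeks than at 1 week by 0.14 in females and 0.40 in males. Its 4 probe sets did not share 1 pattern. The second had 12.13 and 12.24 at 8 weeks, against 11.73 and 12.09 in the controls, with both 8 week pools above both controls. The third had 10.74 and 11.42 in the controls, 11.20 and 10.97 at 1 week and 11.40 and 11.65 at 8 weeks. Its range was wider than that of the brightest, with the female control lowest and a fitted 8 week change of 0.44 ± 0.24. The dimmest ran the other way, with 6.95 and 6.28 in the controls, 6.30 and 5.94 at 1 week and 6.06 and 6.28 at 8 weeks.

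Hsph1 and Dnajb1, which act on the Hsp70 cycle, had the male control above the female control and the male 1 week pool lowest. Hsph1, an Hsp110 protein that exchanges nucleotide on Hsp70, had 9.35 and 9.94 in the female and male controls, 9.66 and 8.97 at 1 week and 9.64 and 9.95 at 8 weeks. Its difference from control was 0.31 in females and -0.97 in males at 1 week, and 0.29 and 0.01 at 8 weeks. Dnajb1, the J-domain partner of stress-induced Hsp70, had 9.38 and 10.10 in the controls, 9.73 and 9.35 at 1 week and 9.72 and 9.97 at 8 weeks. Its difference from control was 0.34 in females and -0.75 in males at 1 week, and 0.34 and -0.14 at 8 weeks. For both genes the control pools bracketed, or nearly bracketed, the pools at 8 weeks. Between 8 weeks and 1 week, Hsph1 differed by -0.02 in females and 0.98 in males, and Dnajb1 by -0.00 and 0.62. In these brightest probe sets the difference thus lay in the male pools.

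The dimmer probe set of Hsph1 had 7.96 and 8.85 in the controls, 8.26 and 7.90 at 1 week and 8.55 and 9.08 at 8 weeks. The dimmer one of Dnajb1 had 8.47 and 8.86, 8.52 and 8.01, and 8.61 and 8.52. Both placed the male 1 week pool lowest, as the brighter probe sets did. At 8 weeks the dimmer Hsph1 probe set was above 1 week by 0.29 in females and 1.17 in males. The dimmer Dnajb1 probe set was above it by 0.09 and 0.51.

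Hsp90aa1 encodes the inducible cytosolic Hsp90, which matures kinases and steroid receptors. Its level was 11.61 and 11.98 in the female and male controls, 11.69 and 11.75 at 1 week and 11.60 and 11.90 at 8 weeks. The fitted change was -0.07 ± 0.15 at 1 week and -0.05 ± 0.15 at 8 weeks, smaller than the difference of 0.37 between the control pools. In the other kept probe sets the control pools differed by 0.03 and -0.01, female minus male. The third of its kept probe sets had both 8 week pools, 10.74 and 10.25, below both controls, 10.91 and 10.92, which the other kept ones did not show.

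The small heat shock gene Hspb1 holds unfolded protein without using ATP. It had 11.56 and 11.39 in the female and male controls, 11.59 and 11.36 at 1 week and 11.59 and 11.18 at 8 weeks. The female pool was the higher in all 3 groups, and the female pools differed among themselves by less than the male ones. The fitted change was -0.00 ± 0.14 at 1 week and -0.09 ± 0.14 at 8 weeks. In the second kept probe set of Hspb1 it was -0.14 ± 0.14 and -0.10 ± 0.14. Bag3 links Hsp70 to small heat shock proteins in chaperone-assisted autophagy. Its only probe set had 9.60 and 9.66 in the controls, 9.54 and 9.67 at 1 week and 9.34 and 9.56 at 8 weeks. Both 8 week pools lay below both controls, by -0.26 in females and -0.10 in males, with a fitted change of -0.18 ± 0.13.

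Serpinh1 encodes Hsp47, the procollagen chaperone of the endoplasmic reticulum. It had 10.87 and 10.78 in the controls, 11.09 and 11.00 at 1 week and 11.04 and 10.67 at 8 weeks. At 1 week it was higher than control by 0.22 in each sex, the only kept member probe set with both 1 week pools above both controls. Its second probe set had 10.34 and 9.97, 9.87 and 10.20, and 10.34 and 10.47, and did not share this pattern. The collagens Col1a1, Col1a2 and Col3a1, named as its clients after their values were seen, had fitted changes of 0.75, 0.34 and 0.40 at 1 week and 0.16, 0.03 and 0.19 at 8 weeks. None of these passed the test.

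Across the 9 genes, the median fitted change was -0.14 at 1 week and 0.03 at 8 weeks, against 0.03 and 0.08 over all 13215 genes. The 1 week value was 0.22 in females and -0.33 in males, and the 8 week value was 0.20 in females and -0.11 in males. Without the male control pool the medians were 0.07 at 1 week and 0.26 at 8 weeks. For 8 weeks against 1 week the median was 0.27, against 0.04 over all genes. Without the male 1 week pool it was -0.11. Of the 20 kept probe sets at 1 week, 14 were above control in females and below it in males (24.2% of all 27022), 2 the reverse (22.4%), 1 above in both (27.5%) and 3 below in both (25.6%). At 8 weeks these counts were 9 (19.3%), 1 (14.9%), 6 (36.5%) and 4 (29.0%). For 8 weeks against 1 week they were 2 (16.7%), 5 (15.2%), 10 (36.3%) and 3 (31.6%). Probe sets of the same gene are not independent, and the shared controls enter both durations.

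Counts of member probe sets are given beside the background of all 27022, from which nothing is read, since the members were selected on these levels. At an adjusted p below 0.05, 0 member probe sets passed at 1 week (background 0%), 0 at 8 weeks (background 0.596%) and 0 for 8 weeks against 1 week (background 0%). In limma, 0 members had an unadjusted p below 0.05 in any of these, against 1486, 6216 and 5000 probe sets over the array. At 1 week, 1 member probe set had both transgenic pools above both controls (background 12.5%) and 0 had both below (background 11.1%). At 8 weeks there were 2 above (background 23%), of Hspa8 and Serpinh1, and 3 below (background 18.8%), of Hspa8, Hsp90aa1 and Bag3. For 8 weeks against 1 week, 10 probe sets of 6 genes lay above (background 20.7%) and 0 below (background 17.7%). Of those 10, 3 were of Hspa1b and 3 of Hspa8.

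Sex was not part of the choice of members, and it was tested over 3 female and 3 male pools with group in the model. The control pools, which also differ in genotype label, enter this test. No member passed: 0 of 20 probe sets, against a background of 8.3% (2244 of 27022), and 0 had an unadjusted p below 0.05 in limma, against 8015 over the array. The smallest adjusted p in limma was 0.20, for Hspb1, which was higher in females by 0.27 ± 0.11 and higher in 3 of 3 groups. With trend and robust variances it passed (limma adjusted p = 0.0388), a setting whose share over all probe sets is not given here. Hspa1a gave -1.44 ± 0.71, female minus male (limma adjusted p = 0.25), and -0.44 with either control array left out. Hspa1b gave -0.68 ± 0.51 (limma adjusted p = 0.42), and 0.044 with either control array left out, so its sign turned. Leaving out either array of a group removes that group's female minus male difference from the fit, and the values are then the same. Over the 9 genes, 2 were higher and 7 lower in females, with a median of -0.15, against -0.02 over all genes. The intervals are wide, so these values do not show that the sexes were alike.

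The transgenic against control change was also compared between the sexes as an interaction, which rests on the levels that chose the members and on the same control pools, so it is a description from which no test is read. It could not be fitted without a control pool. The value, female minus male, was 3.01 ± 1.25 for Hspa1a and 2.16 ± 0.74 for the brightest probe set of Hspa1b. The other probe sets of Hspa1b gave 2.27 ± 0.71 and 2.61 ± 0.87. In limma 0 members passed (background 0%), and 3 had an unadjusted p below 0.05, against 636 probe sets over the array. Those 3 were the probe sets of Hspa1b, which share a source sequence.

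**Figure D3:**
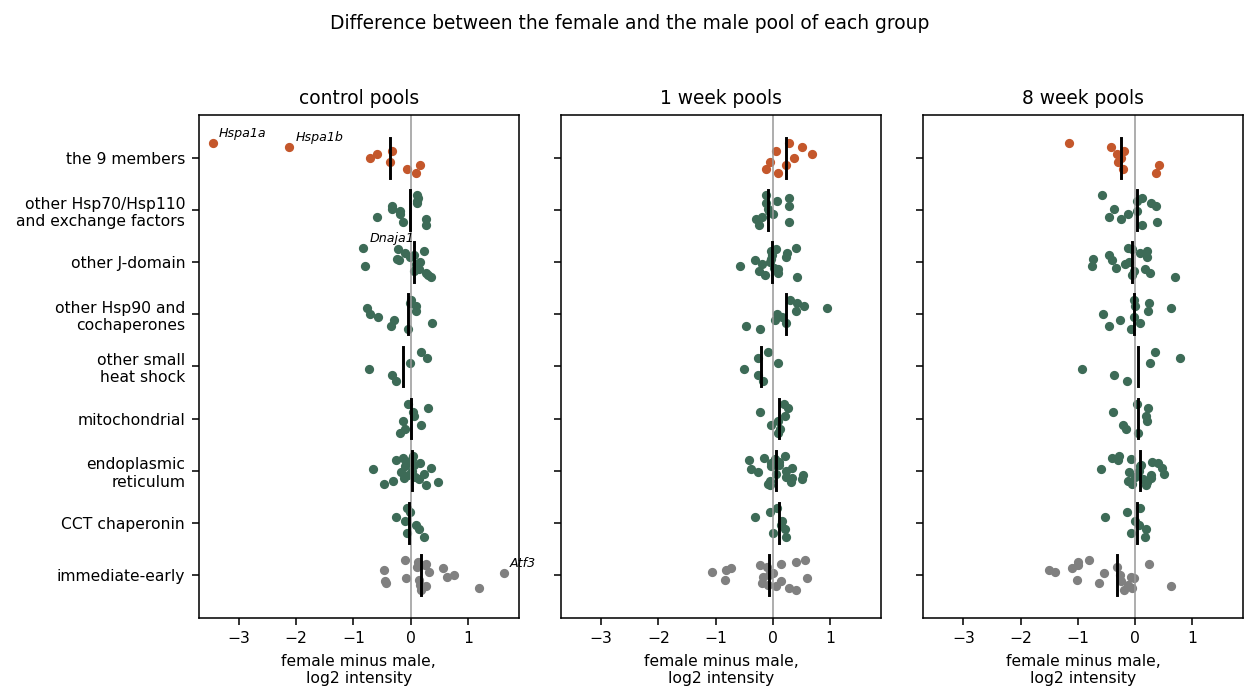
Difference between the female and the male pool of a group in log2 intensity (x axis) for the 9 genes, 7 lists of other chaperones and immediate-early genes (y axis), with 1 point for each gene and a black bar at the median of its list. In the control panel Hspa1a (-3.45) and Hspa1b (-2.12) lie left of all other chaperones, and the member median is -0.37 there, 0.23 at 1 week and -0.24 at 8 weeks.

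The other chaperones had a smaller median split between the control pools. Lists of 94 further chaperone genes and regulators were drawn up, and 86 had a usable probe set. Their median difference between the female and male controls was -0.01, against -0.37 for the members and -0.02 over all genes. The member median is the value of the brightest probe set of Hsp90aa1. The other kept probe sets of that gene had 0.03 and -0.01. The male control was the higher by more than 0.5 in 4 of 9 members, 8 of 86 other chaperones (9.30%) and 13.9% of all genes. The nearest in pattern was Dnaja1, a J-domain partner of Hsp70, with 10.31 and 11.14 in the female and male controls, 10.69 and 10.28 at 1 week and 10.66 and 10.79 at 8 weeks. Hsf1 and Hsp90ab1 had no probe set with that single symbol and were not analysed here.

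Likeness was measured as the root mean square distance between centred log2 profiles over the 6 arrays, as a description. Among genes that were not members, the closest to the mean profile of the members were Dnaja1 (distance 0.063), H2-Eb1 (0.084), 9030619P08Rik (0.099), Hsd3b2 (0.107) and St7l (0.110). That mean did not stand for every member. Hspa1a (0.91), Hspa1b (0.44), Serpinh1 (0.39), Hspb1 (0.38) and Bag3 (0.30) lay farther from it than its root mean square size, 0.29. The other members lay nearer. Hspa1a had no close match outside the members. The nearest such genes were Kcnf1 (0.65), Fst (0.68), Sugct (0.69), Tex35 (0.70) and Il22ra2 (0.73). These distances were large beside the root mean square size of the Hspa1a profile, 1.19. The member Hspa1b lay nearer to Hspa1a than these genes, at 0.51.

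At 1 week, 0 of 86 other chaperones passed the test, with a median change of 0.04 against 0.03 over all genes. At 8 weeks 0 passed, with a median of 0.15 against 0.08, and 68 had values above 0 and 18 below, where 60.2% of all genes were above 0. Hspb6 and Hspb7, small heat shock genes abundant in muscle, were at -1.28 ± 0.27 and -0.82 ± 0.14 (limma adjusted p = 0.10 and 0.08). With trend and robust variances 5 of the 86 passed at 8 weeks, these 2 with Dnajb14, Pdia6 and Sdf2l1. The share of all genes that passed under this setting is not given here, so nothing is read from the count. Hspb6 had 7.14 and 6.36 in the female and male 8 week pools, against 8.18 and 7.89 in the controls. The cardiac markers moved the same way, with summed intensities of 2774 and 7014 at 8 weeks against 13142 and 12729 in the controls, and their part in these values was not tested. Hspb2 was at 0.59 and Cryab, the lens and muscle crystallin, at -0.01.

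Regulators and cofactors of the cytosolic chaperones were also below the threshold for a call at 8 weeks. Among regulators, Hsf4 was at 0.39, Hsf2 at 0.34 and the inhibitor Hsbp1 at 0.03. Of the other Hsp70 and exchange factor genes, Hspa14 was at 0.47, Bag2 at 0.35 and Hspa4l at -0.32. Of the J-domain genes, Dnajb14 was at -0.87 (limma adjusted p = 0.08), Dnajb4 at -0.39 and Dnajc15 at 0.37. Hsp90 cochaperones had 9 of 11 values above 0, led by Aarsd1 (0.49), Fkbp5 (0.47) and Fkbp4 (0.40), with a median of 0.29. None of these values passed the test.

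Chaperones of the mitochondria, of the cytosolic CCT ring and of the endoplasmic reticulum gave values that lay mostly above 0, as did 60.2% of all genes. All 8 mitochondrial genes were above 0 at 8 weeks, with Grpel1 at 0.39, Trap1 at 0.36, Hspe1 at 0.34 and the chaperonin Hspd1 at 0.12. All 8 CCT chaperonin genes were above 0, with Cct5 at 0.37, Cct8 at 0.34 and Cct7 at 0.25. In the endoplasmic reticulum, 18 of 21 were above 0, with Sdf2l1 at 0.72, Pdia6 at 0.63, Dnajb11 at 0.26 and the resident Hsp70 Hspa5 at 0.22. Enzymes that modify collagen were split, with Plod2 at -0.67, Plod1 at 0.54 and P3h1 at 0.43. Cirbp, a cold-inducible RNA-binding gene, was at -0.32. None passed the test.

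In the sex comparison, 2 of the 86 other chaperones passed, both lower in females. Of all 13215 genes, 383 passed as higher and 629 as lower in females, and 8.3% of all kept probe sets passed. The count of chaperones was thus not above the background. Dnajc5, a J-domain protein of secretory vesicles, had a difference of -0.71, female minus male (limma adjusted p = 0.0356), with 9.13 in the female and 9.93 in the male control, 9.14 and 9.72 at 1 week, and 9.20 and 9.95 at 8 weeks. Hspb8, a small heat shock protein that works with Bag3, had a difference of -0.72 (limma adjusted p = 0.0458), with 9.05 and 9.78 in the controls, 9.25 and 9.74 at 1 week, and 9.15 and 10.09 at 8 weeks. The female pool was the lower in 3 of 3 groups for each. For Hspb8, female minus male was -0.73 in the controls, -0.50 at 1 week and -0.94 at 8 weeks.

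Immediate-early genes are a second class that tissue handling can induce. Of 20 listed, 19 were measured. Their median change was -0.27 at 1 week, with 18 of 19 below 0, beside 8 of 9 members and 42.7% of all genes. At 8 weeks it was -0.45, with 17 of 19 below 0, beside 3 of 9 members and 39.8% of all genes. None of the list passed. Between the control pools, female minus male, its median was 0.19, beside -0.37 for the members. Atf3, a stress-induced transcription factor, had 9.41 in the female and 7.78 in the male control, 7.43 in each pool at 1 week, and 7.42 and 7.96 at 8 weeks. It was thus highest in the female control, where Hspa1a was lowest. Egr1 and Egr2 were at -0.87 and 0.88 at 8 weeks. The part of tissue handling in the difference between the control pools was not tested.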

How the data were processed

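The deposited series matrix held intensity values on a linear scale, between 10 and 11513.01, per the file headers and the values. How the authors summarised and scaled the arrays is not given in the sources used here. After quantile normalization of the arrays, a floor was set at the 20th percentile of all values (15.46, log2 3.95), log2 was taken, and probe sets with a mean above the 40th percentile were kept. limma 3.58.1 (R 4.3.3) was fitted to 27022 probe sets with group and sex as terms over 6 arrays, with 2 residual degrees of freedom, with Benjamini-Hochberg adjustment of the p-values over all of them. The interaction came from a model with transgene, sex and their product. Gene symbols came from the platform annotation, which lists several for 932 probe sets and none for 9160. Members, lists and tests were chosen with earlier results of these data known. Of each list, the 3 genes with the largest absolute change at 8 weeks were named, with a few fixed ones, and further names are said to be picked after their values were seen. The number of arrays limits the precision, pools are not single animals, and p-values measure the spread between these pools. For the interaction this is the spread between the durations within a sex, as each control pool is fitted exactly. The model was tested on simulated data. The figures used matplotlib 3.10.9 (Python 3.11.15).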

Additional observations from a re-analysis of the deposited data

Results flagged for a closer look

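For 4 of the 9 genes, both female changes from control lay above 0 and both male changes below 0, a pattern that 8.01% of all 13215 genes had. The interaction, female minus male of the transgenic against control change, was 3.01 ± 1.25 (SE) for Hspa1a, 2.16 ± 0.74 for Hspa1b, 0.78 ± 0.45 for Dnajb1 and 0.15 ± 0.29 for Hspb1. These genes were picked for the opposed signs, and all 4 values use the same 2 control pools, so the values are descriptions and no test is read from them. Their SEs hold no spread of the control pools. For Hspb1 the changes were small, 0.03 and 0.03 in females and -0.03 and -0.22 in males at 1 and 8 weeks. The second kept probe set of Hspb1 had -0.13 and 0.02 in females and -0.15 and -0.23 in males. It was thus below control in both sexes at 1 week and did not share the pattern. Groups of 2 pools were too small to screen for single outlying arrays.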

How the results depend on the processing

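Of 115 alternative values of the medians and counts, 109 were labelled close to the reported ones and 6 moved. A median was labelled close if it shifted by less than the SD between its female and male values. At 1 week that SD was 0.39, wide beside the median of -0.14, and the sign differed in 7 of the 115. Leaving out an array of a group that was not compared could not change a median. Leaving out 1 array at a time, the member median ranged from -0.30 to 0.15 at 1 week, from -0.17 to 0.26 at 8 weeks (0.26 without the male control) and from -0.11 to 0.43 for 8 weeks against 1 week (-0.11 without the male 1 week pool). With trend and robust variances, 1 member probe set passed the sex test (Hspb1, 0.27, limma adjusted p = 0.0388), and 5 other chaperones passed at 8 weeks (Dnajb14, Hspb6, Hspb7, Pdia6 and Sdf2l1) in place of 0. A filter at the 60th percentile gave 2 (Dnajb14 and Hspb7), and 1 value per gene gave 1 (Hspb7). The shares of all genes passing under these settings are not given here, so nothing is read from the counts. The other alternatives left these counts at 0. The cause was not tested.

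The sign of a value that no test called differed in 42 of 417 alternatives. The sex difference of Hspa1b turned to 0.044 with either control array left out (range -1.27 to 0.044), and that of Hspa1a ranged from -2.30 to -0.44, checked after seeing the data. Scaling moved all genes: the median of all genes at 8 weeks was 0.08 quantile normalized, -0.08 as deposited and 0.20 with arrays centred on their medians, and the member median lay -0.05, 0.02 and 0.02 away from it. The difference between the control pools, checked after seeing the data, held at -3.45, -3.35, -3.39 and -3.14 for Hspa1a when quantile normalized, as deposited, centred, and as log2(value + 16). For Hspa1b it was -2.12, -2.05, -2.10 and -2.09, and -2.64 and -2.39 in its other probe sets. The interaction could not be fitted without a control array. The labels give no replicate numbers to pair pools by. The model with sex as a term already set pools of the same sex against each other. Without that term the member medians kept their values, as they must with 1 female and 1 male pool in each group.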
